A study of Danio rerio and Xenopus laevis and Xenopus tropicalis with 8 samples.

Results

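The maternal RNA of zebrafish one-cell embryos was compared between the vegetal and the animal end of the egg. The 3 zebrafish tomo-seq samples were used, of 8 samples in the series, which also holds frog oocytes and 1 library of dissociated zebrafish embryos at 6 h after fertilization. The embryos of that library had been injected with 4-thiouridine triphosphate (4sUTP), and it was used only for the labeled shares at 6 h. All 3 tomo-seq embryos were untreated wildtype AB embryos, frozen at the one-cell stage and cut into 96 cryosections along the axis. The groups compared thus differ by position and not by strain, treatment or stage. They also differed in total counts and in counts of spike-in RNA, which cannot be told apart from position. Spike-in RNA was left out, and a section was used when its total reached 10% of the median section of its embryo, which was the case for 68, 70 and 74 sections of embryos 1, 2 and 3. These sections were divided into 3 parts in their order from the animal pole. The first 22, 23 and 24 sections formed the animal region, the same numbers at the other end formed the vegetal region, and the rest was the middle. Counts were summed over each of these, and the 3 embryos were the replicates. The labels give unique molecular identifiers (UMIs) of 6 nt for embryos 1 and 2 and of 4 nt for embryo 3.

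At the one-cell stage transcription has not begun, so the RNA measured was laid down in the oocyte by the mother. After fertilization the cytoplasm streams to the animal pole and forms the blastodisc, the part that will cleave, whereas the rest of the egg is a yolk mass. RNAs held at the vegetal pole are known for germ plasm, which later specifies primordial germ cells, and for the dorsal determinants of the maternal Wnt pathway.

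The summed counts were 5420486, 6195276 and 18606300 in the animal regions of embryos 1, 2 and 3, and 1751624, 3091740 and 3650054 in the vegetal regions. The animal region held 53.8% ± 4.76 of the counts of the kept sections, the middle 28.4% ± 1.87 and the vegetal region 17.8% ± 6.52 (SD, n = 3). The ratio of animal to vegetal counts was 3.09, 2.004 and 5.10, and it was 2.72, 1.91 and 2.18 per count of spike-in RNA. Levels were therefore compared relative to the RNA of each region, as the counts of a gene per 1000000 counts of the region (CPM), and a higher level of one RNA cannot be told apart from a lower level of the others. Positive log2 fold changes mark RNAs with a higher vegetal level, and negative ones those with a higher animal level. Both regions of an embryo were paired in edgeR's quasi-likelihood test, and genes were called at a Benjamini-Hochberg adjusted p below 0.05. The p-values measure the spread of the vegetal to animal difference between these 3 embryos, not the spread of levels between them. edgeR draws this spread mainly from all genes together. The parents of the embryos are not given.

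Of 9620 genes tested, 418 (4.35%) had a higher vegetal and 2741 (28.5%) a higher animal level when each region was scaled by its total. With edgeR's TMM factors, which set the typical gene to no change, these numbers were 983 (10.2%) and 926 (9.63%). The median log2 fold change over all genes was -0.29 with totals and -0.02 with TMM factors. Without the mitochondrially encoded genes, which took 15.7%, 15.5% and 1.19% of the counts in the animal regions of embryos 1, 2 and 3 and 30.8%, 29.3% and 3.67% in the vegetal regions, the numbers were 654 (6.66%) and 1216 (12.4%). A gene is called below only when it passed under both scalings. For each pole this amounts to the scaling with fewer calls, totals for vegetal and TMM factors for animal genes. All 418 vegetal calls met this rule, and 926 of the animal calls did (4.35% and 9.63% of the genes tested). Fold changes are given with totals.

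**Figure D1:**
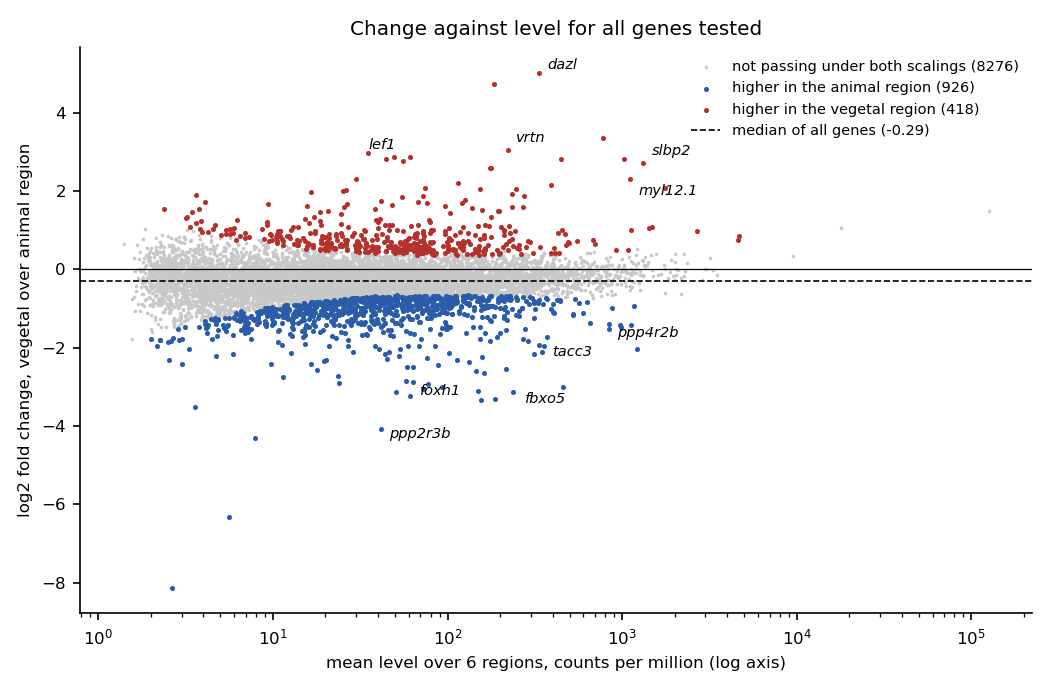
Vegetal over animal log2 fold change (y axis) against the mean level over the 6 regions in CPM (x axis, log scale) for 9620 genes. The 418 vegetal and 926 animal genes that passed under both scalings are colored, and the dashed line marks the median of -0.29.

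The vegetal genes changed by a median log2 fold change of 0.73, and 107 of the 418 changed at least 2-fold, 23 at least 4-fold and 4 at least 8-fold. The animal genes had a median of -0.99, with 456 of 926 at least 2-fold, 52 at least 4-fold and 13 at least 8-fold. These sizes are with totals, where the median over all genes was -0.29, against -0.02 with TMM factors. Which pole had the larger changes therefore depends on the scaling, and the sizes are not compared between the poles. The levels of all vegetal regions lay above those of all animal regions for 76 of the 418 vegetal genes, and the reverse held for 251 of the 926 animal genes. Among all genes tested, called or not, 89 (0.925%) and 463 (4.81%) had regions that did not overlap in these directions. Without embryo 3, 233 of the vegetal and 748 of the animal genes still passed with totals (2.72% and 17% of the genes tested then passed), and without embryo 2 these were 263 and 915. The mean level of the middle lay between both regions for 390 of the 418 vegetal and 915 of the 926 animal genes.

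A higher relative level at the vegetal pole was seldom a larger number of counts in every embryo. Only 13 of the 9620 genes tested had more counts in the vegetal than in the animal region of every embryo, and all 13 were vegetal genes. Because the vegetal regions held fewer counts in total, more vegetal counts imply a higher vegetal level, so the direction of these genes was fixed in advance. They were dazl, grip2a, trim36, vrtn, sulf1, lef1, wnt8a, hook2, sh2d5, sybu, slbp2, ctdsplb and the unnamed locus si:dkey-121h17.7, the last of which is outside the rule for named genes. Per count of spike-in RNA, 48 genes had more RNA in the vegetal region of every embryo, all of them vegetal genes, and the same limit applies. For 253 of the 418 vegetal genes the vegetal region held fewer counts than the animal region in each embryo. For slbp2, which encodes an oocyte form of the stem-loop binding protein of histone mRNAs, the animal region held 3006, 1616 and 4332 counts and the vegetal region 6268, 6092 and 4837. This gene thus had more counts in the vegetal region of each embryo. In embryo 3 the counts differed by little, but its animal region also held more spike-in counts (80028 against 34209), so these counts understate the vegetal excess per spike-in count.

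The largest vegetal changes included genes of the list of germ plasm and germ cell genes and genes outside that list. Whether the RNAs of the latter lie in the germ plasm was not tested. The study reports that maternal RNAs of sh2d5 and camk2g1, which are not on the list, were enriched in primordial germ cells of the gastrula. Vertnin (vrtn, chromosome 20), known in pigs for the number of trunk vertebrae, had 31.6, 70.2 and 43.5 CPM in the animal regions of embryos 1, 2 and 3 and 249, 519 and 414 CPM in the vegetal regions. The groups did not overlap, and the log2 fold change was 3.04 (standard error 0.16, Benjamini-Hochberg adjusted p = 1.8e-18 in edgeR). slbp2 (chromosome 21) had 555, 261 and 233 CPM in the animal and 3578, 1970.3 and 1325 CPM in the vegetal regions. The lowest vegetal value lay above the highest animal one, and the log2 fold change was 2.705 (standard error 0.22, Benjamini-Hochberg adjusted p = 5.3e-13 in edgeR). Its paralog slbp, the somatic form, had a smaller log2 fold change of 0.72.

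The myosin light chain gene myl12.1 (chromosome 7) had 466, 447 and 173 CPM in the animal and 2876, 1858 and 833 CPM in the vegetal regions, without overlap. Its log2 fold change was 2.31 (standard error 0.21, Benjamini-Hochberg adjusted p = 1.3e-11 in edgeR). camk2g1, a calcium/calmodulin-dependent kinase gene (chromosome 12), had 19.9, 49.9 and 100 CPM in the animal and 245, 257 and 392 CPM in the vegetal regions. The groups did not overlap, but the size of its change differed between embryos, and the log2 fold change of 2.57 was 2.16 without embryo 1 and 2.93 without embryo 3. sh2d5, which encodes an SH2 domain protein, had 22.9, 64 and 299 CPM in the animal and 221, 442 and 1631 CPM in the vegetal regions. Its groups overlapped because all levels were highest in embryo 3, although the vegetal region was higher in each embryo (log2 fold change 2.80). The entry of ctdsplb, a phosphatase gene of the small C-terminal domain family, joins a microRNA gene and changed by 2.58 on the log2 scale. pawr, known in mammals as an apoptosis regulator, changed by 2.31, from 8.49, 6.78 and 14.6 CPM in the animal to 44.6, 32 and 72.6 CPM in the vegetal regions.

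**Figure D2:**
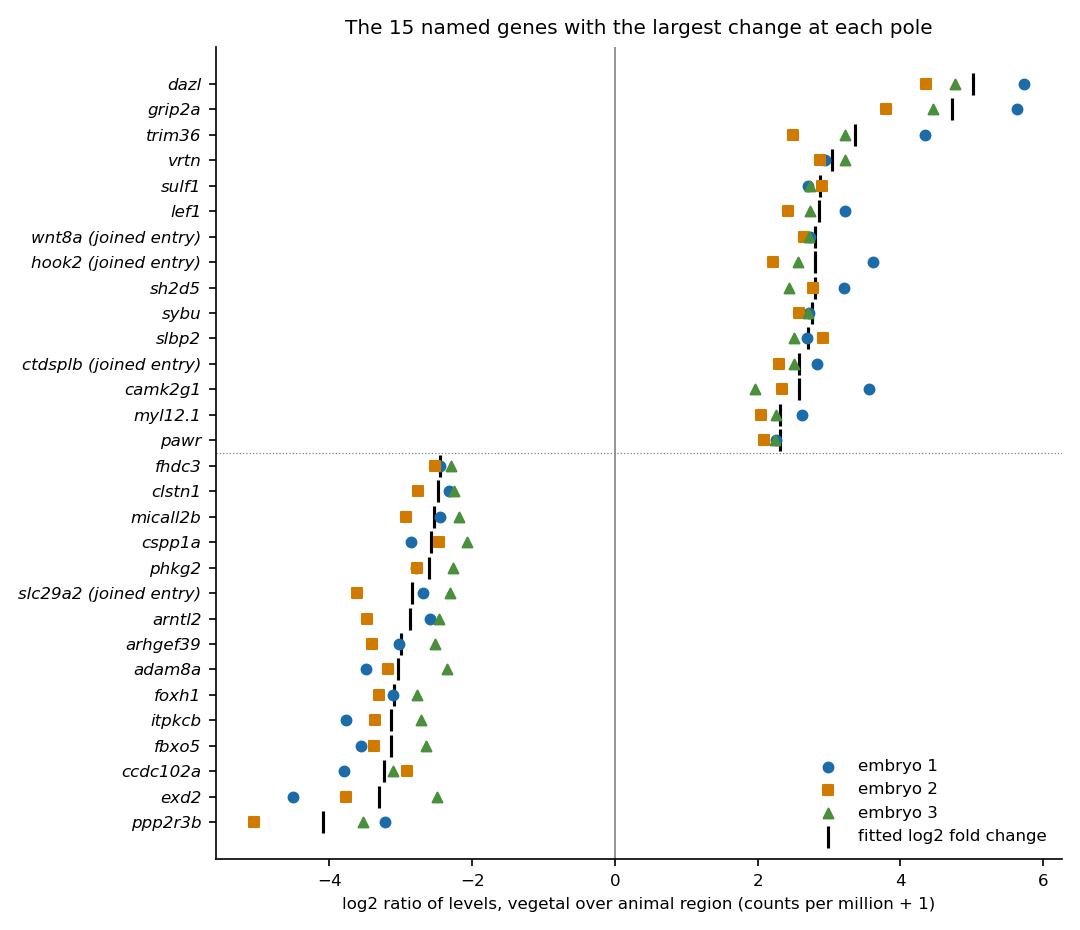
Log2 ratio of the level in the vegetal over the animal region (x axis, CPM with 1 added) in each of 3 embryos for the 15 named genes with the largest change at each pole, with the fitted log2 fold change as a black bar. The same sign in 3 embryos was required for these genes, and the fitted values run from 5.02 for dazl to -4.09 for ppp2r3b.

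Of 23 germ plasm and germ cell genes tested, 8 were vegetal (34.8%) and 1 was animal (4.35%), against 4.35% and 9.63% of all genes tested. The median log2 fold change of these 23 genes was -0.13 with totals and 0.15 with TMM factors. Several of these genes were chosen as vegetal by the study on these embryos, so the count is not independent evidence of their direction. Germ plasm is a collection of RNAs and proteins that marks the cells that take it up as future germ cells. Besides dazl (log2 fold change 5.02) and grip2a (4.72), hook2 (2.81) and celf1 (2.04), the germ cell genes ca15b (1.92), dnd1 (0.88), rbpms2a (0.84) and ddx4 (0.63) passed. ca15b had 99.4, 45.2 and 166 CPM in the animal and 349.6, 227 and 519 CPM in the vegetal regions, without overlap. ddx4, the Vasa RNA helicase gene, had 40.8, 51.7 and 51.9 CPM in the animal and 87.4, 70.3 and 69.4 CPM in the vegetal regions, and without embryo 1 its log2 fold change was 0.43. The middle had 77.9, 93.1 and 73.2 CPM of ddx4, more than the vegetal region in embryos 2 and 3. This RNA was thus lowest in the animal region but not concentrated at the vegetal end. dnd1, which encodes a protein that shields germ cell mRNAs from microRNAs, had 144, 115 and 179 CPM in the animal and 343, 170.5 and 313 CPM in the vegetal regions, and the vegetal value of embryo 2 lay below the animal value of embryo 3. The vegetal over animal change of the called germ cell RNAs ranged from 32.4-fold for dazl to 1.55-fold for ddx4.

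The other germ cell RNAs of the list were not vegetal under both scalings. Of these, gra had a log2 fold change of 0.21 with totals and 0.50 with TMM factors and was vegetal with TMM factors only. tdrd9 had values of 0.43 and 0.71 and was not called. nanos3, which encodes a translational repressor of germ cells, had a log2 fold change of -0.22 with totals and 0.06 with TMM factors and was not called. tdrd7a, a Tudor domain gene of germ granules, had values of -0.32 and -0.04 and was not called. buc, which organizes the Balbiani body of the oocyte, had a log2 fold change of -0.47 with totals and -0.19 with TMM factors and did not pass under both scalings. tdrd1, a Tudor domain gene of the piRNA pathway, was the animal gene of this list, with 22, 18.4 and 148 CPM in the animal and 6.28, 7.76 and 59.4 CPM in the vegetal regions (log2 fold change -1.38).

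The maternal Wnt and dorsal determination genes were split between the poles, with 4 of 19 vegetal and 6 of 19 animal. The median log2 fold change was -0.50 with totals and -0.21 with TMM factors. Of all genes tested, 4.35% were vegetal and 9.63% animal. The study showed wnt8a and sybu as vegetal on these embryos, and the list was written with earlier results known. The counts are therefore not independent evidence of direction. In this pathway a ligand binds frizzled and LRP receptors, and β-catenin then escapes the destruction complex built on axin and activates genes with TCF and LEF factors. The vegetal members were the ligand gene wnt8a (2.81, an entry of 3 joined identifiers), the kinesin linker gene sybu (2.76), the transcription factor gene lef1 (2.86) and the sulfatase gene sulf1 (2.87), whose product trims heparan sulfate. lef1 (chromosome 1) had 6.83, 9.04 and 28.6 CPM in the animal and 72, 53.1 and 196 CPM in the vegetal regions, without overlap. sulf1 (chromosome 24) had 15, 5.17 and 16 CPM in the animal and 103, 45 and 112 CPM in the vegetal regions, without overlap. All 4 had the higher level at the vegetal end of each embryo.

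The animal Wnt members were the inhibitor axin1, some components of the receiving cell and a kinesin gene. axin1 (chromosome 3) had 61.8, 85.8 and 260.2 CPM in the animal and 18.8, 24.9 and 90.5 CPM in the vegetal regions, and the log2 fold change was -1.65 (standard error 0.15, Benjamini-Hochberg adjusted p = 1.8e-11 in edgeR). Its groups overlapped across embryos, and within each embryo the animal region was higher. The coreceptor gene lrp5 (-1.11), the receptor gene fzd7b (-0.94), the dishevelled gene dvl2 (-0.74), the repressor gene tcf7l1a (-0.90) and the kinesin heavy chain gene kif5ba (-0.96, in a joined entry) were animal as well. Maternal kif5ba is known to be needed for the transport of dorsal determinants. Related genes of the same families were not called, among them fzd7a (-0.62), dvl3a (-0.31) and tcf7l1b (-0.01). With TMM factors, 9 of the 19 genes of this list were not called, so the receiving components were not animal as a group.

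**Figure D3:**
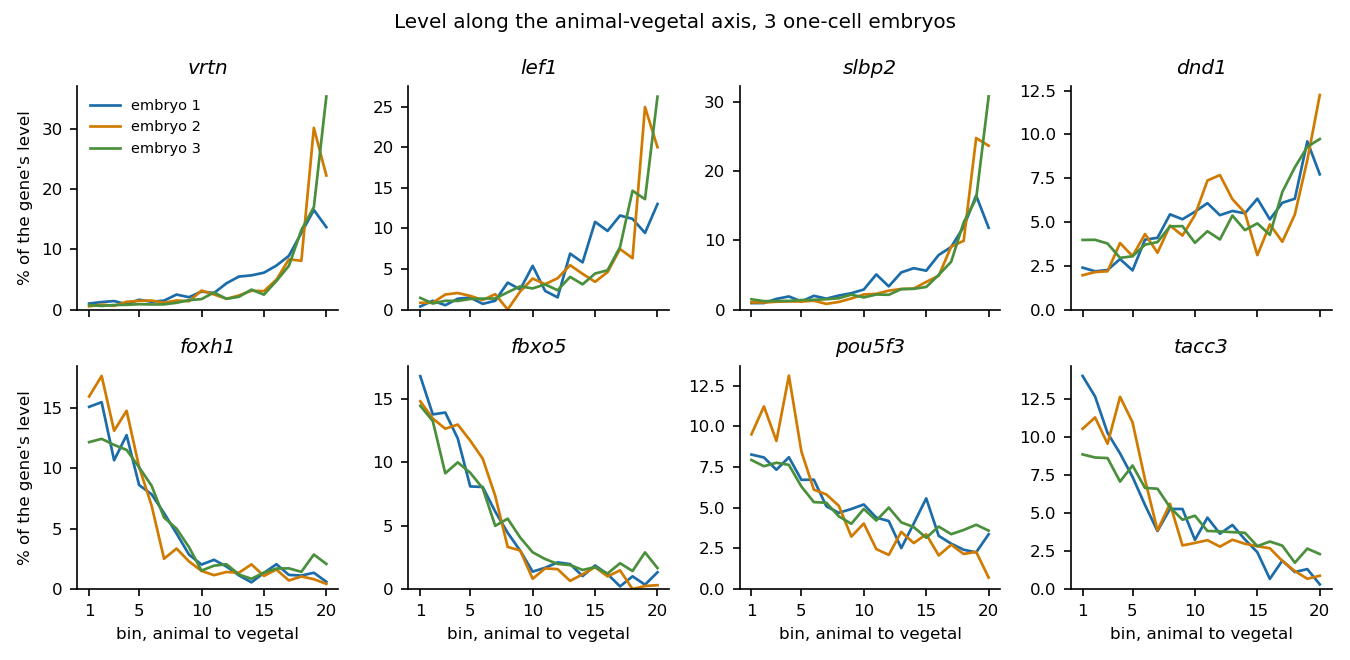
Level along the axis in 20 bins of sections from animal (1) to vegetal (20) for 4 vegetal genes (top) and 4 animal genes (bottom) in 3 embryos, each curve as the percentage of the gene's summed level per bin. vrtn, lef1 and slbp2 peak in bin 19 or 20, dnd1 is spread over the vegetal side, and foxh1 and fbxo5 fall from a peak in bin 1 or 2.

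The sharpness of the patterns was described along the axis in 20 bins, with each section scaled to its total. The genes shown were picked from those already called on the same sections, so a gap between the poles follows from that choice. A gene at an even level would hold 5 parts of 20 in any 5 bins. The last 5 bins held 70.2% ± 9.74 of the level of vrtn, 67.1% ± 8.51 of slbp2 and 61.8% ± 6.22 of lef1, compared with 36% ± 1.86 of dnd1 (SD, n = 3). All of these peaked in bin 19 or 20 in each embryo. At the other end, the first 5 bins held 64.2% ± 6.85 of foxh1, 61.9% ± 5.23 of fbxo5, 49.9% ± 7.45 of tacc3 and 42.4% ± 7.87 of pou5f3. In the last 5 bins the lowest share of a vegetal gene was 34.9% (dnd1, embryo 1), and the highest of an animal gene was 18.4% (pou5f3, embryo 3). In the first 5 bins the lowest share of an animal gene was 37.2% (pou5f3, embryo 3), and the highest of a vegetal gene was 17.7% (dnd1, embryo 3). foxh1 peaked in bin 2 of each embryo.

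The largest animal changes were seen in genes of diverse function. foxh1 (chromosome 12), the DNA-binding partner of Smad2 in Nodal signaling, had 265, 287 and 248 CPM in the animal and 29.7, 28.2 and 35.4 CPM in the vegetal regions. The groups were far apart, and both varied little between embryos (log2 fold change -3.09, standard error 0.16, Benjamini-Hochberg adjusted p = 2.3e-18 in edgeR). fbxo5 (chromosome 13), whose product Emi1 inhibits the anaphase-promoting complex, had 213, 210.4 and 835 CPM in the animal and 17.1, 19.4 and 132 CPM in the vegetal regions. It did not overlap either, and its log2 fold change was -3.14 (standard error 0.19, Benjamini-Hochberg adjusted p = 3.5e-17 in edgeR).

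ppp2r3b, which encodes a regulatory subunit of protein phosphatase 2A, had the most negative value among the named genes, with a log2 fold change of -4.09. Its counts were 45, 332 and 3213 in the animal and 0, 2 and 51.4 in the vegetal regions, so the size rested on few vegetal molecules, and it was -6.40 without embryo 3. exd2, which encodes an exonuclease of the DNA damage response, had 125, 259 and 603 CPM in the animal and 4.57, 18.1 and 106 CPM in the vegetal regions (log2 fold change -3.31). The largest relative loss was in embryo 1, and without embryo 3 the value was -4.08. The metalloprotease gene adam8a (-3.05), the circadian transcription factor gene arntl2 (-2.87), the phosphorylase kinase gene phkg2 (-2.60), the centrosome and spindle gene cspp1a (-2.58), the calsyntenin gene clstn1 (-2.48) and the formin-like gene fhdc3 (-2.45) followed, with ccdc102a (-3.24). An entry that joins slc29a2, hif1al2 and rin1a changed by -2.84, and its reads cannot be divided between these genes. All of these except ppp2r3b and fhdc3 had groups that did not overlap.

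Transcription and signaling factors for genome activation and the first inductive signals formed the list with the highest animal share. Of 28 genes, 10 were animal (35.7%) and 2 vegetal (7.14%), against 9.63% and 4.35% of all genes tested. The median log2 fold change was -0.50 with totals and -0.22 with TMM factors. The list was written with earlier results of these data known, so its counts are not independent evidence. pou5f3, a pioneer factor of zygotic genome activation, had 125, 209 and 561 CPM in the animal and 56, 56.1 and 311 CPM in the vegetal regions (log2 fold change -1.28, standard error 0.17, Benjamini-Hochberg adjusted p = 1.5e-07 in edgeR). The groups overlapped across embryos, and the animal region was higher in each embryo. Its partner gene sox19b had a log2 fold change of -1.10. The protease gene bmp1a (-2.32), the bromodomain gene brd2b (-1.54), the activin receptor genes acvr2aa (-1.30) and acvr2ba (-1.42) and foxh1 were the 5 largest. Members that were not called included nanog (-0.04) and tdgf1 (0.04). nanog had 4552, 1904 and 702 CPM in the animal and 4036, 1595 and 870 CPM in the vegetal regions.

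The 2 vegetal members of that list were the T-box factor gene eomesa and the Hippo pathway coactivator gene yap1. eomesa had 1393, 1108 and 171 CPM in the animal and 3624, 1839 and 364 CPM in the vegetal regions (log2 fold change 1.07). The level was far lower in embryo 3, in both regions, and the direction was the same in all embryos. yap1 had 277, 138 and 152 CPM in the animal and 590.0, 206 and 175 CPM in the vegetal regions (log2 fold change 0.63), and without embryo 1 its value was 0.39. The MAP kinase kinase kinase gene map3k7, which acts downstream of TGF-β receptors, resembled eomesa, with 1458, 855 and 243 CPM in the animal and 4297, 1588 and 415 CPM in the vegetal regions.

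Among genes for cell division more were called animal than vegetal, and most were not called. The same held for all genes tested, with 9.63% animal and 4.35% vegetal. Of 67 genes of the centrosome, spindle and kinetochore, 16 were animal (23.9%) and 2 vegetal (2.99%). The median log2 fold change was -0.56 with totals and -0.27 with TMM factors. tacc3, which stabilizes spindle microtubules, had 133, 501 and 981 CPM in the animal and 20, 99.6 and 342 CPM in the vegetal regions (log2 fold change -2.10). aspm, which organizes spindle poles, had 241, 304 and 332 CPM in the animal and 56.6, 99.2 and 115 CPM in the vegetal regions (log2 fold change -1.72), without overlap. The vegetal members were hmmr (1.77), known for binding spindle microtubules and hyaluronan, and KIF2A (1.58), a kinesin that takes microtubules apart.

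Of 68 cyclins, mitotic kinases and checkpoint genes, 10 were animal (14.7%) and 2 vegetal (2.94%), against 9.63% and 4.35% of all genes tested. The median was -0.25 with totals and 0.04 with TMM factors, slightly above the medians of all genes. Besides fbxo5, the animal genes included the cyclin gene ccnb3 (-1.96), the kinase gene aurka (-1.77) and the checkpoint gene bub1bb (-1.82). The vegetal counts of bub1bb were only 1, 3 and 7 in embryos 1, 2 and 3. The cyclin-dependent kinase genes cdk6 (2.02) and cdk9 (0.88) were vegetal, the latter outside the rule for named genes. cdk6 had 10.2, 9.21 and 6.10 CPM in the animal and 80, 40.5 and 10.5 CPM in the vegetal regions. Its change was smallest in embryo 3, and the value was 2.56 without that embryo.

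Of 93 genes for DNA replication and repair, 21 were animal and 0 vegetal under both scalings. With totals 45 were animal and 0 vegetal, and with TMM factors 21 and 1. Among all genes tested, 28.5% were animal and 4.35% vegetal with totals, and 9.63% and 10.2% with TMM factors. The median was -0.44 with totals and -0.16 with TMM factors. The animal genes included orc1 (-1.48) and orc3 (-1.31) of the origin recognition complex and the repair genes brca2 (-1.69), rad52 (-1.30) and rad17 (-1.23). With 1 embryo left out, the value ran from -1.77 to -0.54 for orc3, -2.15 to -0.80 for rad52 and -1.43 to -0.94 for rad17. Vegetal counts were few, with 1, 13 and 29 for orc3 and 2, 26 and 7 for rad52 in embryos 1, 2 and 3. In embryo 2 the log2 ratio of orc3 was -0.04. Of 145 chromatin regulators 23 were animal and 2 vegetal, with medians of -0.36 and -0.08, and the vegetal ino80db (2.07), of a chromatin remodeling complex, had one of the larger vegetal values. Of 76 genes for RNA decay, deadenylation and poly(A) binding, 13 were animal and 2 vegetal, with medians of -0.32 and -0.04. cpeb1b, a regulator of cytoplasmic polyadenylation, had 337, 707 and 543 CPM in the animal and 89.7, 120.4 and 209 CPM in the vegetal regions, without overlap (log2 fold change -1.94). The cytoplasmic poly(A) polymerase gene tent2 followed at -1.63.

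**Figure D4:**
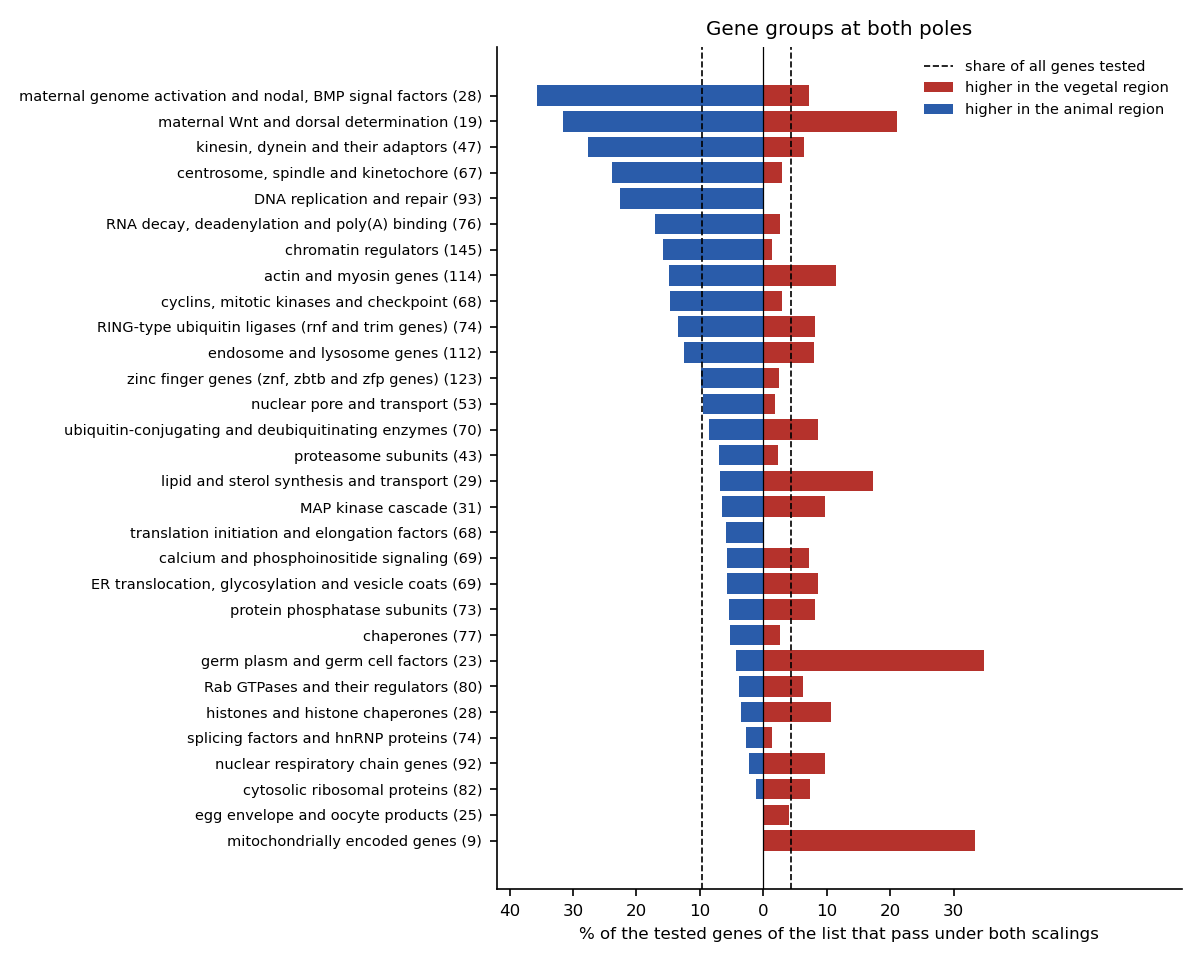
Percentage of the tested genes of 30 gene lists (x axis) called vegetal (red, to the right) or animal (blue, to the left) under both scalings, with the number of genes tested in brackets. Dashed lines mark the 4.35% and 9.63% of all genes tested, and the germ plasm list (34.8% vegetal) and the genome activation list (35.7% animal) lie far from these. The lists were written with earlier results of these data known, so these distances are not independent evidence.

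Motor and cytoskeletal genes were found at both poles, where 4.35% (vegetal) and 9.63% (animal) of all genes tested were called. Of 47 kinesin, dynein and adaptor genes, 13 were animal and 3 vegetal, with a median of -0.48 with totals and -0.20 with TMM factors. The vegetal members were the dynein adaptor genes hook2 and ndel1b (1.60) and KIF2A, whereas kif1aa (-2.21), kif13a (-1.96) and kif4 (-1.84) were animal. The vegetal counts of kif1aa were only 1, 1 and 15 in embryos 1, 2 and 3. Its value ran from -3.15 to -1.98 with 1 embryo left out. kif13a, which moves endosomal cargo, had 54, 72.6 and 58.2 CPM in the animal and 10.8, 19.7 and 16.1 CPM in the vegetal regions, without overlap. Of 114 actin and myosin genes, 13 were vegetal and 17 animal, with a median of -0.28 with totals and 0.01 with TMM factors, so this list exceeded the share of all genes at both poles. myl12.1 (2.31), the formin gene fhod1 (1.53) and the cytokinetic ring gene anln (1.48) were the largest vegetal members, and micall2b (-2.53) and the tropomyosin gene tpm1 (-1.64) the largest animal ones. anln had 62.1, 26.2 and 161 CPM in the animal and 103, 64.8 and 759 CPM in the vegetal regions, and its value was 1.01 without embryo 3.

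Few pairs of paralogs lay at opposite poles. Among 611 pairs of tested genes whose symbols differ only in a final a or b, both members were animal in 15 pairs and both vegetal in 3, 1 member was called in 146, and the members were called at opposite poles in 4. Each of these pairs is described here as a case, and with 4.35% of all genes called vegetal and 9.63% animal, nothing particular to paralogs is read from their number. itpkca and itpkcb encode kinases that phosphorylate inositol trisphosphate. itpkca (chromosome 21) had 20.1, 17.3 and 92.3 CPM in the animal and 49.1, 36.9 and 192 CPM in the vegetal regions (log2 fold change 1.13), whereas itpkcb (chromosome 18) had 35.8, 52.7 and 183 CPM in the animal and 1.71, 4.21 and 27 CPM in the vegetal regions (-3.13). micall2a and micall2b, which encode adaptors between Rab GTPases and actin, had log2 fold changes of 0.78 and -2.53. The other pairs were atp6v1c1a (0.84) and atp6v1c1b (-1.08), which encode a subunit of the vacuolar proton pump, and gdpd5a (0.58) and gdpd5b (-0.74), which encode glycerophosphodiester phosphodiesterases. The members of a pair were counted separately, and how many reads could map to both was not tested. These pairs were singled out after their values were seen.

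**Figure D5:**
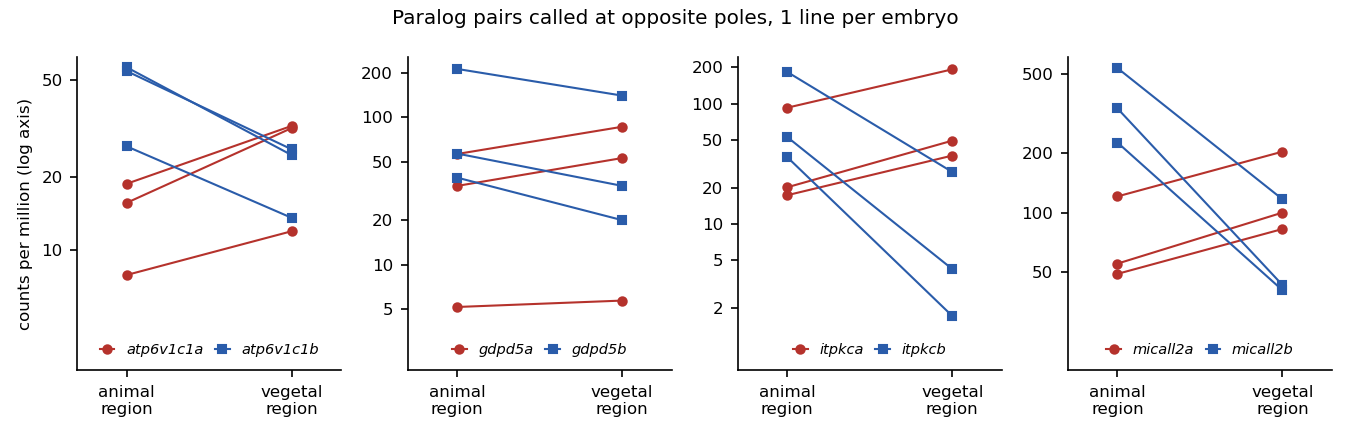
Levels in CPM (y axis, log scale) in the animal and the vegetal region for the 4 paralog pairs called at opposite poles, with 1 line per embryo. Each red line (a member) rises toward the vegetal region and each blue line (b member) falls.

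Genes of membranes, lipids and organelles were called at both poles, in small numbers. For comparison, 4.35% of all genes tested were vegetal and 9.63% animal. Of 29 lipid and sterol genes, 5 were vegetal and 2 animal, with medians of -0.16 with totals and 0.13 with TMM factors. The vegetal ones were the fatty acid elongases elovl1a (1.00), elovl7a (0.92) and elovl6l (0.76), the lipoprotein receptor gene vldlr (0.48) and the adaptor gene ldlrap1a (0.64), whereas the acyl-CoA synthetase gene acsl3b (-1.52) and a further elongase, elovl4b (-0.70), were animal. elovl1a had 37.9, 61.7 and 62.1 CPM in the animal and 82.3, 102 and 139 CPM in the vegetal regions, without overlap. Without embryo 3, 2 of the lipid and sterol genes passed as vegetal.

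Of 69 genes for translocation into the endoplasmic reticulum, glycosylation and vesicle coats, 6 were vegetal and 10 animal with totals, and 21 and 4 with TMM factors, with medians of -0.09 and 0.19. The shares of all genes tested were 4.35% and 28.5% with totals, and 10.2% and 9.63% with TMM factors. The oligosaccharyltransferase gene krtcap2 (1.13) and the sphingolipid regulator gene ormdl1 (0.97) were vegetal, and the translocon gene sec61a1 (-1.16) was animal. Of 112 endosome and lysosome genes, 9 were vegetal (8.04%) and 14 animal (12.5%), against 4.35% and 9.63% of all genes tested. The medians of these genes were -0.27 and 0.00. The largest was the recycling endosome gene rab11fip1b (-2.32), followed by the sorting nexin gene snx24 (-1.68) and the tethering complex gene vps18 (-1.40), all animal. Of 80 Rab GTPases and regulators, 5 were vegetal and 3 animal, with medians of -0.31 and -0.03, and without embryo 3 only 1 gene passed as vegetal. rab3aa, of regulated exocytosis, had 49.4, 91.8 and 30.4 CPM in the animal and 176, 279 and 96.6 CPM in the vegetal regions (log2 fold change 1.70), without overlap.

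Mitochondrially encoded RNAs had the highest median of the lists, 0.75 with totals and 1.03 with TMM factors. Of 9 entries, 3 were vegetal with totals, 5 with totals and without embryo 3, 9 with TMM factors and 0 animal, and 7 of the 9 reached the largest value that the UMIs allow in embryo 3. For comparison, 4.35% of all genes tested were vegetal and 28.5% animal with totals, and 10.2% and 9.63% with TMM factors. With totals and without embryo 3, 2.72% were vegetal. mt-co1, of cytochrome c oxidase, had 3715, 5441 and 1449.6 CPM in the animal and 7252, 6436 and 3696 CPM in the vegetal regions (log2 fold change 0.85). It was among the entries at this ceiling, so its levels in embryo 3 were capped. Its log2 ratio was 0.97, 0.24 and 1.35 in embryos 1, 2 and 3, and the part of the ceiling in the last value was not tested. Of 92 nuclear genes of the respiratory chain, 9 were vegetal and 10 animal with totals and 21 and 2 with TMM factors, with medians of -0.07 and 0.21. The medians of this nuclear list were -0.02, -0.05 and -0.10 in embryos 1, 2 and 3, against -0.38, -0.22 and -0.27 for all genes.

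Cytosolic ribosomal protein genes had a median of 0.17 with totals and 0.45 with TMM factors. Of 82 genes, 6 were vegetal and 3 animal with totals, but 50 and 1 with TMM factors, so the number of calls depended on the scaling. The shares of all genes tested were 4.35% vegetal and 28.5% animal with totals, and 10.2% and 9.63% with TMM factors. The median was 0.07, 0.12 and 0.32 in embryos 1, 2 and 3, and 1 gene passed as vegetal without embryo 3. rps2 had 95.3, 161 and 340.1 CPM in the animal and 135, 226 and 535 CPM in the vegetal regions (log2 fold change 0.55). Other parts of the protein synthesis and turnover machinery did not share this direction. Their calls are given under both scalings, where 4.35% of all genes tested were vegetal and 9.63% animal. Of 68 translation factors, 0 were vegetal and 4 animal (medians -0.32 and -0.04), among them 3 genes of the scaffold family eIF4G, eif4g3a (-0.94), eif4g2a (-0.81) and eif4g1a (-0.80). With TMM factors, 4 translation factors were vegetal. Of 43 proteasome genes, 1 was vegetal and 3 animal (medians -0.24 and 0.03), and of 77 chaperones 2 and 4 (medians -0.34 and -0.05).

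Regulatory enzymes were called at both poles. The lists below held 7.25% to 9.68% vegetal and 5.48% to 13.5% animal genes, against 4.35% and 9.63% of all genes tested. Of 73 protein phosphatase subunits, 6 were vegetal and 4 animal (medians -0.24 and 0.02), with ctdsplb and ppp2r3b at the ends and ppp1r9ba (-2.75), which targets phosphatase 1 to actin in neurons, and ppp4r2b (-1.40) on the animal side. Of 69 calcium and phosphoinositide genes, 5 were vegetal and 4 animal (medians -0.36 and -0.09), and of 31 MAP kinase cascade genes 3 and 2 (medians -0.32 and -0.05). Of 74 RING-type ubiquitin ligases, 6 were vegetal and 10 animal (medians -0.38 and -0.10), and trim36 (3.36), a ligase needed for dorsal axis formation, was far above the others. Of 70 ubiquitin-conjugating and deubiquitinating enzymes, 6 were vegetal and 6 animal (medians -0.27 and 0.01), with ube2w (1.11) and usp24 (-1.44) the largest of each, and 3 passed as vegetal without embryo 3.

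The remaining lists held few calls, and the shares of all genes tested were 4.35% vegetal and 9.63% animal. Of 74 splicing genes 1 was vegetal and 2 animal (medians -0.21 and 0.07), and of 53 nuclear pore and transport genes 1 and 5 (medians -0.39 and -0.11), the vegetal one being the importin gene kpna6 (1.48). Of 28 histones and histone chaperones 3 were vegetal and 1 animal (medians -0.30 and -0.01), and slbp2 and slbp were among the vegetal ones. Without embryo 3, the lists for RNA decay and chaperones (2 vegetal genes each) and for splicing and the proteasome (1 each) had 0 vegetal genes with totals in edgeR, and those for cyclins and chromatin (2 each) had 1. Of 123 zinc finger genes 3 were vegetal and 12 animal (medians -0.33 and -0.05, with 1 vegetal without embryo 3), and of 25 egg envelope and oocyte genes 1, ca15b, was vegetal and 0 animal (medians -0.16 and 0.13).

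Markers of other cells were low or uncalled. Of the marker lists for follicle cells, blood, muscle, the enveloping layer and neurons, 2, 1, 3, 2 and 2 genes were tested and 0 passed under both scalings. The summed level of blood markers was 3.51 to 9.09 CPM in the animal and 6.15 to 10.2 CPM in the vegetal regions, and that of enveloping layer keratins and annexins 13.7 to 26.8 and 11.3 to 15.4 CPM. The follicle cell list summed to 304 to 1039 CPM in the animal and 239 to 957 CPM in the vegetal regions. Most of this came from the steroidogenic gene cyp11a1. A further member, cyp17a1, had 63, 119 and 1446 counts in the animal and 18, 78 and 377 in the vegetal regions of embryos 1, 2 and 3. Another member, cyp19a1a, had 0 counts in all animal and vegetal regions and 1 count in the middle of embryos 1 and 3. The muscle list summed to 743 to 931 and 542 to 688 CPM, nearly all of it in an entry that joins myosin genes with other genes. The neural list summed to 40.6 to 208 and 37.6 to 156 CPM. The part of other cells in the results was not tested.

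The genes were then looked up in the library of dissociated embryos at 6 h, which separates newly made RNA, labeled with 4-thiouridine, from older unlabeled RNA. Over all barcodes of this 1 library, the median labeled share was 38.7% over 358 vegetal genes and 42.6% over 742 animal genes with at least 50 counts, against 40.3% over 7368 tested genes, with no replicate and no test. Under 10% of the counts were labeled for 51 of the 358 vegetal genes (14.2%), for 92 of the 742 animal genes (12.4%) and for 12.3% of all genes. Within each pole the shares differed widely between genes. At the vegetal pole, 5.96% of the dazl counts were labeled (95% Wilson interval 3.85% to 9.11%), 6.04% of slbp2 (3.41% to 10.5%) and 4.84% of hook2 (2.24% to 10.2%), but 82% of vrtn (80.8% to 83.1%), 73.8% of sulf1 (66.2% to 80.2%) and 69.2% of lef1 (60.4% to 76.7%). At the animal pole, 84.3% of the foxh1 counts (83% to 85.5%) and 72.5% of fbxo5 (70.7% to 74.2%) were labeled. The intervals cover counting error only, and the labeled counts are not corrected for incomplete labeling.

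The embryos agreed in part. Over the 9620 genes, Pearson's correlation of the log2 ratios was 0.52 for embryos 1 and 2, 0.54 for 1 and 3 and 0.61 for 2 and 3 (Spearman 0.42, 0.43 and 0.50), across genes, which are not independent replicates. Embryo 3 differed for abundant RNAs. In the fifth of genes with the highest levels the median log2 ratio was -0.10 in embryo 3, compared with -0.39 and -0.30 in embryos 1 and 2. In this embryo a gene could reach at most 1597 counts per section, and 612 values in 76 genes lay there, among them 3 of the 418 vegetal and 5 of the 926 animal genes.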

How the data were processed

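Tomo-seq libraries of 3 zebrafish one-cell embryos were analyzed. The authors mapped the reads to GRCz10 with STAR 2.5.3a and deposited expected counts, which are UMI counts per gene and section corrected for molecules that drew the same UMI. Undoing the correction gave whole numbers within 0.001 for 100% of the values below the ceiling. For the library at 6 h, whose reads were mapped to GRCz11, UMI counts with and without label as deposited by the authors were summed over barcodes. Every entry names a gene. Entries that join several identifiers (684 of the 9620 tested) were kept as 1 gene, and symbols were taken by identifier from the annotation of the 6 h library. The coordinates given are chromosomes. Frog samples and the authors' spike-in filter of sections were not used here.

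Counts were summed per region, rounded, filtered with filterByExpr at a minimum count of 10 and tested with glmQLFit and glmQLFTest of edgeR 4.0.16 (R 4.3.3, limma 3.58.1), with the embryo as a block and the total of each region as library size. The script was tested on simulated data. Both regions of a block come from 1 embryo, and their deviations from the group means correlated across genes at 0.89, 0.83 and 0.93. Scaling with TMM factors, DESeq2 1.42.0, other filters, narrower regions (the first and last 1 of 4 parts of the sections), values without the UMI correction, leaving out gene sets and leaving out each embryo were the alternatives. One alternative, TMM factors without embryo 3, was chosen after seeing the data.

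Named genes were the 15 per direction with the largest change among genes that passed under both scalings, with the same sign in 3 embryos and at least 20 CPM in the higher region, landmark genes of the study, and up to 5 members of each of 35 gene lists. All members of the germ plasm, Wnt and genome activation lists could be named, and in other lists with few calls further members were named after their values were seen. The lists and the comparison were chosen with earlier results of these data known. Patterns meant for other genes, such as ribosomal S6 kinases among ribosomal proteins, were taken out of the lists after the files were seen. Python 3.11.15, pandas 2.3.3 and numpy 2.4.6 were used, and figures were drawn with matplotlib 3.10.9.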

Additional observations from a re-analysis of the deposited data

How the results depend on the processing

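The number of genes called depended on the scaling. Against 418 vegetal and 2741 animal genes with totals, TMM factors gave 983 and 926, DESeq2 gave 624 and 427, leaving out mitochondrial genes gave 654 and 1216, leaving out genes at the UMI ceiling gave 683 and 1137, and undoing the UMI correction gave 293 and 1315. Leaving out 1 embryo at a time, 247 to 410 vegetal and 1548 to 2203 animal genes were called, the lowest numbers without embryo 3. TMM factors without embryo 3, an alternative chosen after seeing the data, gave 666 and 571. Without the embryo as a block, 0 vegetal and 0 animal genes passed in edgeR, with 36 and 96 at an unadjusted p below 0.05, and the common dispersion was 0.585 in place of 0.0158. No low count filter, all sections and narrower regions kept both numbers within 1.5 times. All 418 vegetal genes passed with TMM factors, and 384 of them with DESeq2. Of the 210 named results, 1 reversed, znf106b, whose log2 fold change was 0.10 with TMM factors and without embryo 3 (adjusted p = 0.94 in edgeR with Benjamini-Hochberg adjustment) and -1.18 with totals. In the fit without the block 27 of the 210 kept their side of the threshold. The median labeled share at 6 h moved from 38.7% to 38.3% for the 418 vegetal and from 40.9% to 41.7% for the 2741 animal genes called with totals with a minimum of 200 in place of 50 counts. Depth limits genes with few vegetal counts, such as ppp2r3b. The cause of these differences was not tested.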

Other observations

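Further genes with large changes lay outside the gene lists and the rule for named genes, and they were chosen after their values were seen. All those given here passed under both scalings in edgeR. At the vegetal pole they included transporters and membrane proteins. slc7a6, an amino acid transporter gene, had 21.2, 38 and 65.6 CPM in the animal and 102, 178 and 286 CPM in the vegetal regions of embryos 1, 2 and 3 (log2 fold change 2.19). The vegetal region was higher in each embryo, and the groups did not overlap. The amino acid transporter gene slc38a7 had 95.1, 156 and 92.5 CPM in the animal and 672, 339 and 299.8 CPM in the vegetal regions (1.87), and its log2 fold change ran from 1.41 to 2.25 with 1 embryo left out. rftn2, which encodes a raftlin of lipid rafts, had 229, 79.6 and 105 CPM in the animal and 1214, 332 and 404 CPM in the vegetal regions (2.14), without overlap.

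At the animal pole, mitotic regulators outside the lists included mastl and gtse1. mastl encodes the Greatwall kinase, which keeps a phosphatase inhibited during mitosis, and had 51.8, 237 and 478 CPM in the animal and 7.42, 45.7 and 125 CPM in the vegetal regions (log2 fold change -2.23). gtse1, a microtubule-binding protein gene, had 30.5, 102 and 126 CPM in the animal and 3.43, 23 and 29.9 CPM in the vegetal regions (-2.22), and its highest vegetal value was just below its lowest animal one. For both genes the animal region was higher in each embryo, although the groups overlapped for mastl. stk17b (-2.10) and stk17al (1.70), which encode kinases of the same family, were found at opposite poles.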
